A study of Mus musculus with 16 samples.

Results

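Plasminogen activation in cardiac fibroblasts was followed through 5 mouse genes: the activators Plat and Plau, the receptor Plaur, and the serpins Serpine2 and Serpinf1. The genes were chosen by name, with earlier results of these data known. They were matched by symbol to the Ensembl identifiers of a count table of 55414 genes. All 5 were found, and all 5 were among the 15285 genes that had enough counts to be tested. The table came from RNA sequencing of 16 libraries of mouse heart fibroblasts, described as a test of forced deletion of Has2, the hyaluronan synthase gene. Each of 4 cell preparations gave 1 library to each of 4 groups, and the preparations carry the replicate numbers 1 to 4.

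The 4 groups were cells given Cre adenovirus and TGF-beta, cells given GFP adenovirus and TGF-beta, cells given Cre adenovirus alone, and cells given GFP adenovirus alone. In all groups the protocol describes passage 2 fibroblasts from Has2fl/fl mice, whereas the genotype label of every library reads wild type C57BL/6J. Cre recombinase cuts out the floxed exon 2 of Has2, and GFP adenovirus was the control. Cells were kept without serum for 24 h, infected for 5 h, and then cultured for 48 h in fresh medium. The protocol gives 20 ng/mL for bFGF and TGF-beta in a single phrase, so whether the groups without TGF-beta received bFGF is not settled by the labels. Preparations 1 and 4 were male and preparations 2 and 3 were female. The labels do not say how many hearts made up a preparation, and no uninfected cells or Cre-treated cells without floxed alleles were analysed here.

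Plasmin, the main protease that dissolves fibrin, is cut from the liver zymogen plasminogen by tissue-type activator (Plat) or urokinase (Plau). Urokinase works at the cell surface when it is held by its receptor, the GPI-anchored protein uPAR (Plaur). Serpins are suicide inhibitors of serine proteases: protease nexin-1 (Serpine2) inhibits thrombin, urokinase, tissue-type activator and plasmin, while PEDF (Serpinf1) keeps the serpin fold, inhibits no known protease and acts as a secreted anti-angiogenic and collagen-binding factor. In the heart, the system is known for its part in clearing fibrin and remodelling matrix after injury, and TGF-beta is a main driver of the change of fibroblasts into contractile myofibroblasts.

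Libraries held 17858263 to 48748487 counts. Levels are given as CPM, the counts of a gene relative to the size of its library, scaled by the trimmed mean of M values (TMM) method. The first principal component carried 55.3% of the variance and separated libraries with TGF-beta from those without it. The second carried 20.3% and set all 4 libraries of preparation 4 apart from the other 12. Acta2, smooth muscle actin, averaged 2204 ± 488 CPM in TGF-beta-treated Cre cells against 310 ± 62.7 CPM in Cre cells without it, and 2244 ± 576 CPM in TGF-beta-treated GFP cells against 328 ± 63.4 CPM in GFP cells without it (SD, n = 4 each). All 9 fibroblast markers were tested, and their summed level ranged from 17897 to 41020 CPM over the 16 libraries. All 12 macrophage and leukocyte markers were also detected, in sums of 441 to 1808 CPM. Of 8 cardiomyocyte markers 3 were tested, and the list summed to 3.12 to 12.3 CPM with TGF-beta and 5.17 to 23.6 CPM without it, mostly from Tnnt2. With preparation as a block, which compares libraries within a preparation, 2 of the 3 were lower with TGF-beta in Cre cells and 3 of 3 in GFP cells. In that fit 27.3% of all tested genes were lower in Cre cells and 26.5% in GFP cells. The part of the cardiomyocyte markers in the results was not tested. Actc1 and Pln were at 0 in every library, and Myh6 had at most 1 count in any library.

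The targeted gene Has2 had 14.9, 13.5, 16.6 and 13.9 CPM in Cre cells of preparations 1 to 4, against 17.96, 15.3, 23.2 and 18.4 CPM in GFP cells. With TGF-beta it had 12.4, 11.03, 25.0 and 17.4 CPM in Cre cells, against 15.3, 9.47, 21.9 and 20.6 CPM in GFP cells. In medium alone all 4 preparations had less Has2 with Cre, and under TGF-beta 2 of 4 did. Neither difference passed the test (log2 difference -0.35 ± 0.26 SE and -0.03 ± 0.26 SE). With the block they were -0.32 (95% interval -0.65 to 0.0045) and -0.04 (95% interval -0.36 to 0.29), and neither passed. The counts cover the whole gene and do not separate exon 2 from the rest, so the groups are named below by the virus they were given.

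With TGF-beta, 4 of the 5 genes changed in cells of both viruses. Plat, Plau and Serpine2 fell, Plaur rose, and Serpinf1 did not pass the test. Changes were called at an adjusted p under 0.05 in edgeR's quasi-likelihood test with Benjamini-Hochberg adjustment over all 15285 genes. At that threshold 3 of the 5 genes were called lower and 1 higher in GFP cells, where 15.3% of all tested genes were lower, 13.8% higher and 29.1% called in either direction. In Cre cells the same 3 were lower and the same 1 was higher, where 16.3% of all tested genes were lower, 14.0% higher and 30.3% called in either direction. With the block, the same 4 genes were called in the same directions, where 27.3% of all tested genes were lower and 25.2% higher in Cre cells (52.5% in all), and 26.5% lower and 22.6% higher in GFP cells (49.1% in all). In bulk RNA, fewer cells of a type and less RNA per cell cannot be told apart. The plot of CPM by group shows every library.

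**Figure D1:**
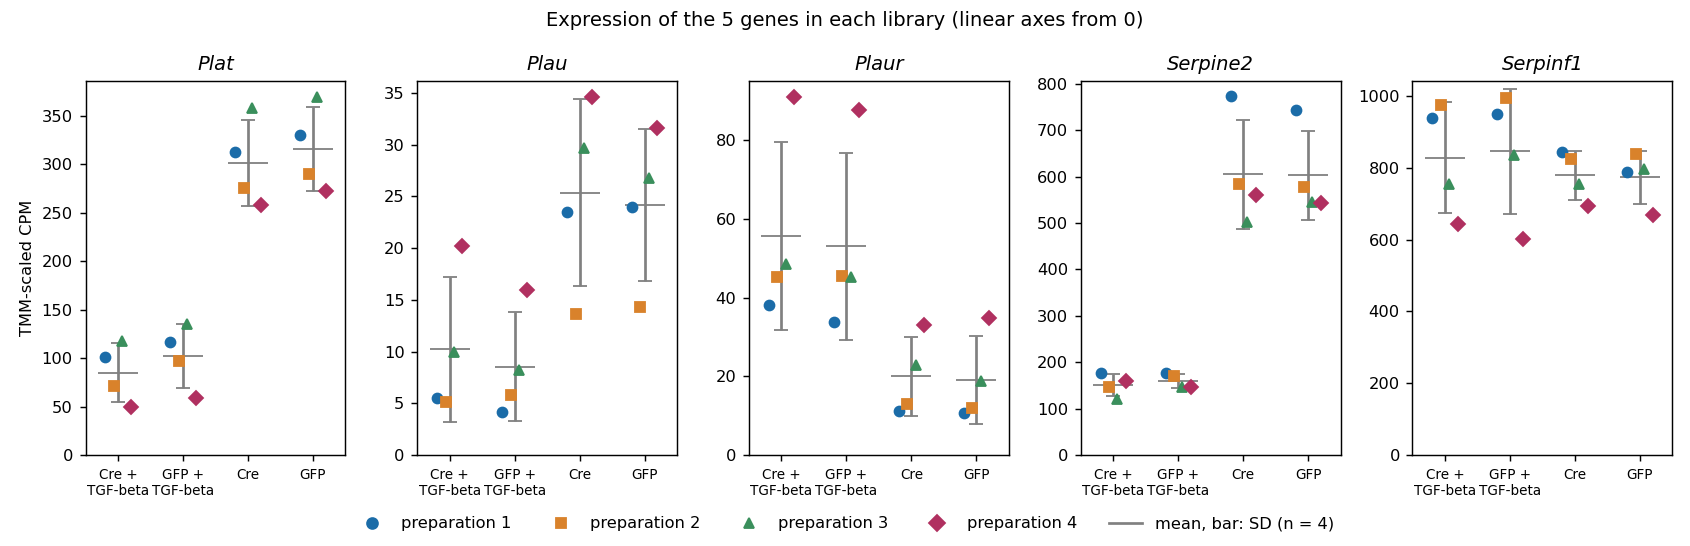
TMM-scaled CPM of the 5 genes (linear axes from 0) in each of the 16 libraries, with the 4 groups along the x axis from left to right as Cre with TGF-beta, GFP with TGF-beta, Cre and GFP. Symbols mark the 4 preparations and grey bars the mean and SD (n = 4 each), and the groups with TGF-beta lie apart from those without it for Plat and Serpine2, while Serpinf1 lies between 602 and 995 CPM in every group.

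Plat encodes tissue-type plasminogen activator, a secreted protease that works best when bound to fibrin. It had 101, 71.2, 117 and 49.8 CPM in Cre cells with TGF-beta, against 313, 276, 358 and 258 CPM in Cre cells without it. In GFP cells it had 117, 97.0, 135 and 58.3 CPM with TGF-beta, against 330, 290, 370 and 273 CPM without it. Every library with TGF-beta was below every library without it. Plat fell 3.55-fold in Cre cells (log2 -1.83 ± 0.26 SE, adjusted p = 0.000114, edgeR's quasi-likelihood test) and 3.10-fold in GFP cells (log2 -1.63 ± 0.26 SE, adjusted p = 0.000293, the same test). The fall was seen in 4 of 4 preparations with either virus, and it was largest in preparation 4, at 5.19-fold in Cre cells and 4.68-fold in GFP cells. The other 3 preparations fell 3.05- to 3.88-fold in Cre cells and 2.73- to 2.99-fold in GFP cells.

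Plau encodes urokinase, the activator that acts with Plaur at the cell surface. It had 5.51, 5.16, 10.0 and 20.2 CPM in Cre cells with TGF-beta, against 23.5, 13.6, 29.7 and 34.6 CPM in Cre cells without it. In GFP cells it had 4.12, 5.84, 8.24 and 16 CPM with TGF-beta, against 24.0, 14.3, 26.7 and 31.7 CPM without it. The groups overlapped, because preparation 4 with TGF-beta lay above preparation 2 without it for either virus, yet Plau was lower with TGF-beta within every preparation. The fall was 2.48-fold in Cre cells (log2 -1.31 ± 0.47 SE, adjusted p = 0.0460, edgeR's quasi-likelihood test) and 2.81-fold in GFP cells (log2 -1.49 ± 0.47 SE, adjusted p = 0.0275, the same test). With the block, the adjusted p was 0.000104 in Cre cells and 5.95e-05 in GFP cells (edgeR's quasi-likelihood test).

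The call on Plau without the block did not survive the loss of several single libraries. In GFP cells the adjusted p of edgeR's quasi-likelihood test passed 0.05 without replicate 1, 3 or 4 of GFP or replicate 1, 2 or 3 of GFP with TGF-beta, reaching 0.0783 at most. In Cre cells it passed 0.05 without any 1 of replicates 1, 3 and 4 of Cre, replicates 1, 2 and 3 of Cre with TGF-beta, replicates 1 and 3 of GFP, or replicates 2 and 3 of GFP with TGF-beta, reaching 0.119 at most. With the block, Plau was called in 4 of 4 fits that each left out a preparation, with adjusted p of at most 0.00336 in Cre cells and 0.00228 in GFP cells (edgeR's quasi-likelihood test).

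Plaur encodes uPAR, the receptor that holds urokinase at the cell surface, and it was the member that rose. It had 38.0, 45.3, 48.5 and 90.9 CPM in Cre cells with TGF-beta, against 11.2, 12.96, 23.0 and 33.0 CPM in Cre cells without it. In GFP cells it had 33.8, 45.6, 45.3 and 87.8 CPM with TGF-beta, against 10.6, 12.02, 18.8 and 34.8 CPM without it. The groups did not overlap in Cre cells, and in GFP cells they overlapped only where replicate 4 without TGF-beta lay above replicate 1 with it. Plaur rose 2.78-fold in Cre cells (log2 1.48 ± 0.44 SE, adjusted p = 0.0195, edgeR's quasi-likelihood test) and 2.80-fold in GFP cells (log2 1.48 ± 0.44 SE, adjusted p = 0.0198, the same test). With the block, the log2 difference was 1.52 ± 0.12 SE in Cre cells and 1.55 ± 0.12 SE in GFP cells (adjusted p = 8.38e-08 and 8.85e-08, the same test). The rise was present in 4 of 4 preparations with either virus, from 2.11- to 3.50-fold in Cre cells and from 2.41- to 3.80-fold in GFP cells.

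Without the block, the call on Plaur was lost when replicate 1 or 2 of Cre or replicate 4 of Cre with TGF-beta was left out in Cre cells, with adjusted p of 0.0643, 0.0620 and 0.0660 (edgeR's quasi-likelihood test). In GFP cells it was lost without replicate 1 or 2 of GFP or replicate 4 of GFP with TGF-beta, with adjusted p of 0.0658, 0.0603 and 0.0711 (edgeR's quasi-likelihood test). With the block it was called in 4 of 4 fits that left out a preparation, for either virus.

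The promoter of Plaur is shown because it belongs to the only member that rose. RefSeq's promoter table for GRCm38.p6 held 3 of the 5 genes, Plaur, Serpine2 and Serpinf1, and had no entry for Plat and Plau. The 300 bases from 250 before to 50 after each start were searched on both strands for TGANTCA, the AP-1 motif, for CAGAC, a SMAD-binding box, and for GGGCGG, the GC box. The 250 bases before the Plaur start, chr7:24462233-24462482 on the + strand, read as follows, with matches in capitals.
Plaur: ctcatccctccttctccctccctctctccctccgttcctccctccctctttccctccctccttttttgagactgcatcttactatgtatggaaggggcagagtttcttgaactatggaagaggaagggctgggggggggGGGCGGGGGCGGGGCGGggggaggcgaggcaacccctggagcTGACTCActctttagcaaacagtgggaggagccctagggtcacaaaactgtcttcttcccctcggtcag
The window held 1 AP-1 match, TGACTCA at -69, and 3 GC boxes at -111, -105 and -100 from the start, of which the last pair overlap by 1 base. No CAGAC was found in it on either strand. Of 32851 promoters of the same length, 7.81% held the AP-1 motif, 49.6% held CAGAC and 35.7% held the GC box. A match is a description of letters and not of a bound factor.

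Serpine2 encodes protease nexin-1, a secreted inhibitor of thrombin and of both activators that is held near cells by heparan sulfate. Its level was 176, 147, 120 and 160 CPM in Cre cells with TGF-beta, against 774, 584, 502 and 560 CPM in Cre cells without it. In GFP cells it had 176, 170, 146 and 147 CPM with TGF-beta, against 745, 578, 545 and 543 CPM without it. The lowest library without TGF-beta held 502 CPM and the highest with it 176 CPM. Serpine2 fell 4.02-fold in Cre cells (log2 -2.01 ± 0.16 SE, adjusted p = 4.42e-07, edgeR's quasi-likelihood test) and 3.77-fold in GFP cells (log2 -1.91 ± 0.16 SE, adjusted p = 7.66e-07, the same test). Its fall within a preparation ranged from 3.51- to 4.40-fold in Cre cells and from 3.40- to 4.22-fold in GFP cells.

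The Serpine2 and Serpinf1 promoters are set side by side because the serpins differed in their response. The Serpine2 sequence is chr1:79858666-79858915 and the Serpinf1 sequence chr11:75422624-75422873 of GRCm38.p6, both on the - strand and read 5′ to 3′, with matches in capitals.
Serpine2: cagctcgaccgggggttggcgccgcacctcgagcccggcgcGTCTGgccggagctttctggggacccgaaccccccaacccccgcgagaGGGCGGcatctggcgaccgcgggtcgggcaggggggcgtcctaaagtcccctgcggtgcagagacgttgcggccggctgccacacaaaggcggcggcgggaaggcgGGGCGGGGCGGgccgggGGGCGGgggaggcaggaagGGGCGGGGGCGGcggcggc
Serpinf1: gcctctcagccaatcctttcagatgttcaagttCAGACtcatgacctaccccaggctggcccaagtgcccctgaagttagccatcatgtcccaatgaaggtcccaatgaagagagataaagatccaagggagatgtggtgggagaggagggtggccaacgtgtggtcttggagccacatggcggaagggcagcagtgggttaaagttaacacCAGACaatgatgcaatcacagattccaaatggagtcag
The Serpine2 window held 6 GC boxes, at -161, -55, -50, -38, -19 and -13, with those at -55 and -50 sharing 1 base, and GTCTG, the reverse strand of CAGAC, at -209. Its G and C content over the 300 bases was 77.7%, against 52.7% for the median of all 32851 promoters. The Serpinf1 window held CAGAC at -217 and at -38, no GC box and no AP-1 match, and its G and C content was 50.7%. The Plaur window had 59.3%.

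Serpinf1 was the most abundant of the 5 genes and did not pass the test for TGF-beta. It had 938, 975, 756 and 645 CPM in Cre cells with TGF-beta, against 843, 825, 755 and 695 CPM in Cre cells without it. In GFP cells it had 949, 995, 837 and 602 CPM with TGF-beta, against 790, 839, 796 and 669 CPM without it. It was higher with TGF-beta in preparations 1, 2 and 3 and lower in preparation 4, for either virus. The log2 difference was 0.09 ± 0.16 SE in Cre cells (95% interval -0.25 to 0.43) and 0.13 ± 0.16 SE in GFP cells (95% interval -0.21 to 0.47). Its adjusted p was 0.700 in Cre cells and 0.588 in GFP cells in edgeR's quasi-likelihood test. With the block and without preparation 4 it was called higher in GFP cells by 0.19 on the log2 scale (adjusted p = 0.0285, edgeR's quasi-likelihood test), while in Cre cells the adjusted p was 0.0865.

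Cre and GFP cells were then compared for each gene in the same medium, which asks whether the virus meant to delete Has2 moved the plasminogen genes. None of the 5 genes was called in either medium. Without TGF-beta 0% of all 15285 genes were called by edgeR's quasi-likelihood test, 169 genes had an unadjusted p under 0.05, and DESeq2 called 3. With TGF-beta 0% were called, 268 genes had an unadjusted p under 0.05, and DESeq2 called 0. With the block 0.170% of genes were called without TGF-beta (0.164% higher and 0.00654% lower with Cre) and 0.0654% with it, none of them among the 5. With the block, 882 genes without TGF-beta and 2039 with it had an unadjusted p under 0.05. These counts depended on which preparations were kept. The blocked fit called 0 genes in either medium without preparation 1, and likewise without preparation 2. Without preparation 3 it called 0 genes without TGF-beta and 3 with it. Without preparation 4, the blocked fit called 0.751% of 15183 genes without TGF-beta (103 higher and 11 lower with Cre) and 1.53% with it (224 higher and 8 lower), and the fit without the block called 17 and 0. None of the 5 genes was among these either. The lowest adjusted p without preparation 4 was that of Plat with TGF-beta in the blocked fit, at 0.0844 for a log2 difference of -0.27 (edgeR's quasi-likelihood test).

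Plat was the only member lower with Cre in every preparation of both media. Without TGF-beta it averaged 301 ± 44.3 CPM in Cre cells and 316 ± 43.5 CPM in GFP cells, and with TGF-beta 84.9 ± 30.3 CPM in Cre cells and 102 ± 33.0 CPM in GFP cells (SD, n = 4 each). It was lower with Cre in 4 of 4 preparations in both media, by 0.05 to 0.08 on the log2 scale without TGF-beta and by 0.20 to 0.45 with it. The fitted difference with TGF-beta was -0.26 ± 0.26 SE (95% interval -0.81 to 0.29), and -0.27 with the block (95% interval -0.55 to 0.0064). Its adjusted p in edgeR's quasi-likelihood test was 0.9996 without the block and 0.382 with it. Without TGF-beta the difference was -0.07 ± 0.26 SE (95% interval -0.61 to 0.48).

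Plau averaged 25.3 ± 9.04 CPM in Cre cells and 24.2 ± 7.31 CPM in GFP cells without TGF-beta, and 10.2 ± 7.02 CPM in Cre cells and 8.55 ± 5.25 CPM in GFP cells with it (SD, n = 4 each). Its log2 differences were 0.07 (95% interval -0.91 to 1.05) without TGF-beta and 0.25 (95% interval -0.75 to 1.25) with it. Both intervals leave room for a change of either sign. Within preparations 1 to 4 the differences were -0.03, -0.07, 0.15 and 0.13 without TGF-beta, and 0.42, -0.18, 0.28 and 0.34 with it. Plaur averaged 20.0 ± 10.1 CPM in Cre cells and 19.1 ± 11.1 CPM in GFP cells without TGF-beta, and 55.7 ± 23.9 CPM in Cre cells and 53.1 ± 23.8 CPM in GFP cells with it (SD, n = 4 each). Its differences were 0.08 (95% interval -0.85 to 1.00) and 0.07 (95% interval -0.85 to 0.98). With the block the interval for Plau was -0.41 to 0.49 without TGF-beta and -0.31 to 0.68 with it, and that for Plaur -0.17 to 0.36 without TGF-beta and -0.18 to 0.33 with it.

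The serpins had the narrowest intervals. Serpine2 averaged 605 ± 118 CPM in Cre cells and 603 ± 96.1 CPM in GFP cells without TGF-beta, and 151 ± 23.7 CPM in Cre cells and 160.0 ± 15.6 CPM in GFP cells with it (SD, n = 4 each). Its log2 differences were 0.01 (95% interval -0.32 to 0.33) and -0.09 (95% interval -0.41 to 0.24). Serpinf1 averaged 779 ± 67.9 CPM in Cre cells and 773 ± 73.0 CPM in GFP cells without TGF-beta, and 829 ± 155 CPM in Cre cells and 846 ± 175 CPM in GFP cells with it (SD, n = 4 each). Its log2 differences were 0.01 (95% interval -0.33 to 0.35) and -0.03 (95% interval -0.37 to 0.31). With the block the interval for Serpine2 was -0.17 to 0.16 without TGF-beta and -0.26 to 0.07 with it. That for Serpinf1 was -0.16 to 0.18 without TGF-beta and -0.20 to 0.15 with it.

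**Figure D2:**
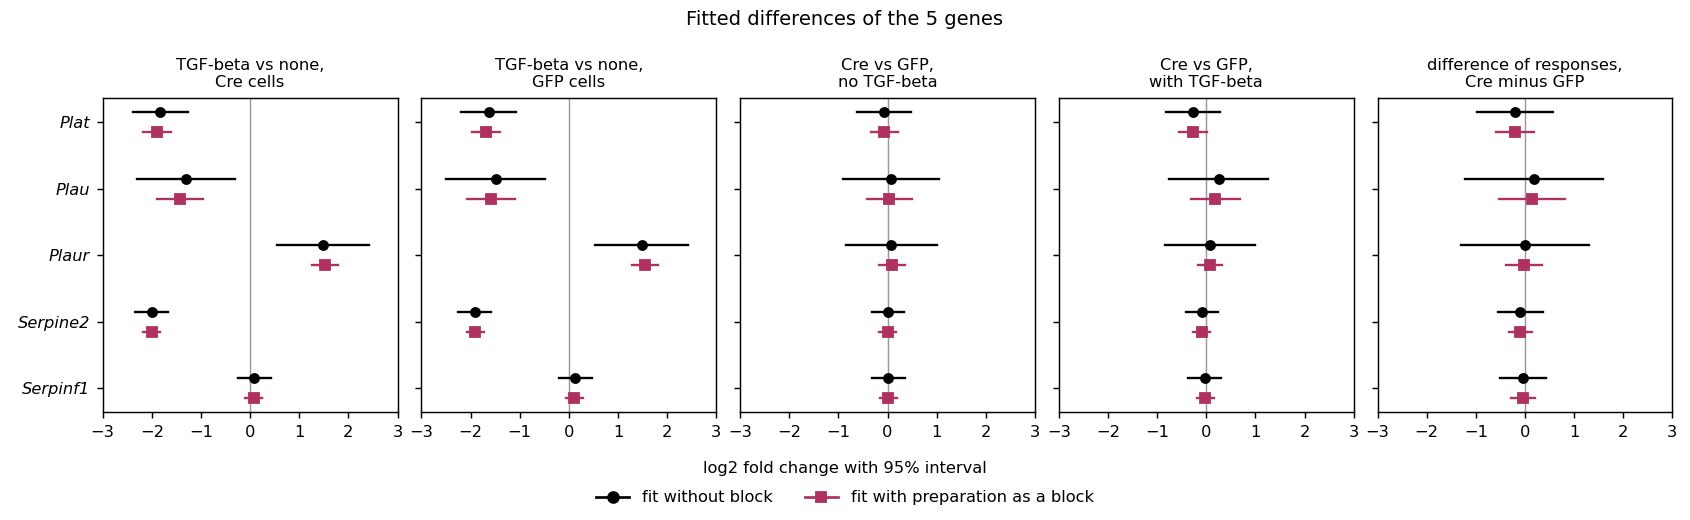
Fitted log2 fold changes with 95% intervals for the 5 genes in 5 comparisons, from the fit without a block (circles) and with preparation as a block (squares). The TGF-beta panels lie off 0 for Plat, Plau, Plaur and Serpine2, and every interval for Cre against GFP and for the difference of responses crosses 0.

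The difference between the TGF-beta response of Cre cells and that of GFP cells was tested directly. None of the 5 genes was called, 0% of all genes were called with or without the block, 90 genes had an unadjusted p under 0.05 without it and 501 with it, and DESeq2 called 0. The log2 difference of responses was -0.20 ± 0.36 SE for Plat (95% interval -0.97 to 0.58), and it was negative in 4 of 4 preparations, from -0.38 to -0.13. For Plau it was 0.18 (95% interval -1.22 to 1.58), for Plaur -0.01 (95% interval -1.31 to 1.29), for Serpine2 -0.09 (95% interval -0.55 to 0.37) and for Serpinf1 -0.04 (95% interval -0.52 to 0.44). With the block the intervals were narrower, at -0.59 to 0.19 for Plat, -0.52 to 0.81 for Plau and -0.39 to 0.34 for Plaur. Those of Serpine2 and Serpinf1 were -0.33 to 0.14 and -0.28 to 0.21. The plot of fitted differences shows these intervals beside the responses themselves.

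The preparations differed from one another in a way that repeated across groups. Preparation 4 had the highest Plau and Plaur and the lowest Plat and Serpinf1 in all 4 groups. Preparation 3 had the highest Plat, and preparation 1 the highest Serpine2 and the lowest Plaur, in all 4 groups. The highest preparation exceeded the lowest 2.22- to 3.92-fold for Plau and 2.39- to 3.30-fold for Plaur, against 1.21- to 1.54-fold for Serpine2 and 1.21- to 1.65-fold for Serpinf1. For Plat the ratio under TGF-beta was 2.36 in Cre cells and 2.32 in GFP cells, whereas without TGF-beta it was 1.39 in Cre cells and 1.36 in GFP cells.

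For Plat, Plau and Plaur, but not for the serpins, the size of the TGF-beta response was ordered alike across preparations in Cre and GFP cells, which share no library but come from the same preparations. For Plau the fall in preparations 1 to 4 was 4.26-, 2.64-, 2.97- and 1.71-fold in Cre cells, and 5.82-, 2.45-, 3.24- and 1.98-fold in GFP cells. For Plaur the rise was 3.39-, 3.50-, 2.11- and 2.76-fold in Cre cells, and 3.20-, 3.80-, 2.41- and 2.52-fold in GFP cells. Both genes had the same order of preparations in the 2 virus arms, with the largest Plau fall in preparation 1 and the smallest in preparation 4, and so had Plat, with its largest fall in preparation 4 and its smallest in preparation 3. For Serpine2 the largest fall was in preparation 1 with either virus, and the smallest was in preparation 4 in Cre cells and in preparation 2 in GFP cells. For Serpinf1 the highest value was in preparation 2 in Cre cells and in preparation 1 in GFP cells, and the lowest in preparation 4 with either virus. No test was made of these orders.

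**Figure D3:**
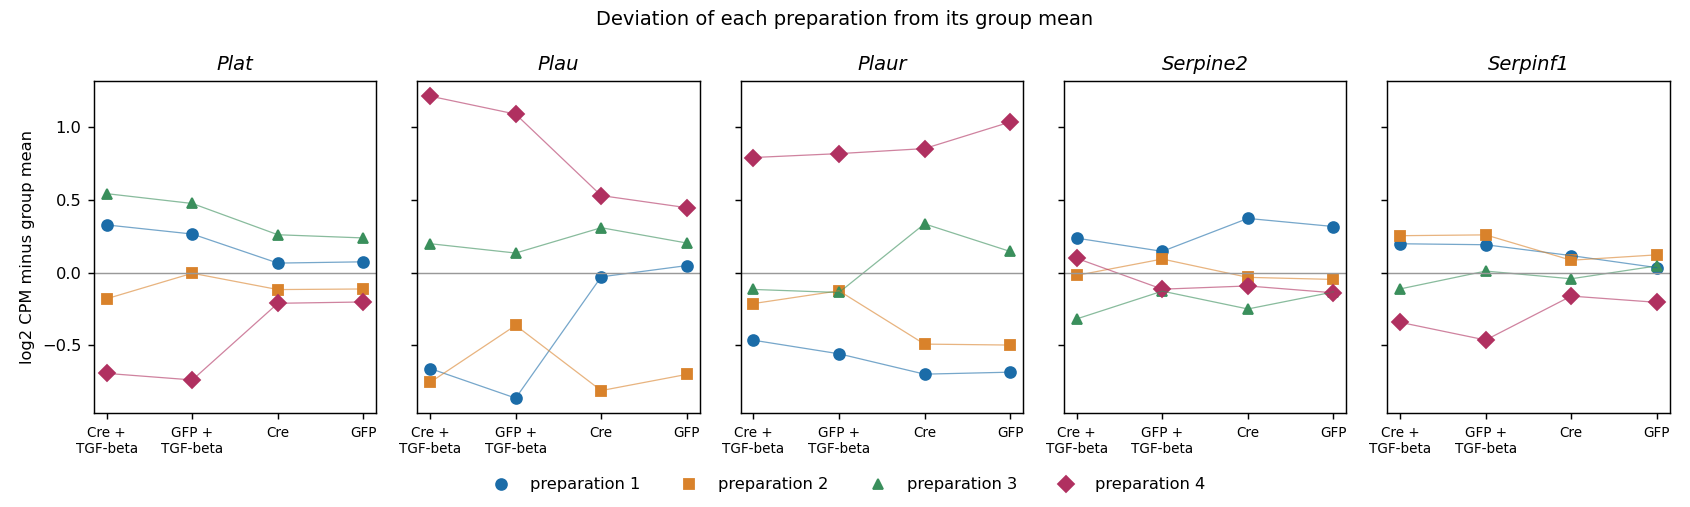
Deviation of each preparation from its group mean (log2 CPM) for the 5 genes, in the 4 groups. Preparation 4 stands highest for Plau and Plaur and lowest for Plat and Serpinf1 in all 4 groups.

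Macrophage markers moved with preparation and with TGF-beta. Their summed level was 1120 CPM in Cre cells with TGF-beta, 1026 CPM in GFP cells with TGF-beta, 1808 CPM in Cre cells and 1681 CPM in GFP cells of preparation 4, against 441 to 645 CPM with TGF-beta and 682 to 960 CPM without it in the other preparations. With the block, 11 of 12 macrophage markers were lower with TGF-beta in Cre cells and 12 of 12 in GFP cells, and 3 of 12 without the block in either. Of all tested genes, 27.3% were lower in Cre cells and 26.5% in GFP cells with the block, and 16.3% and 15.3% without it. Myeloid cells are known to express Plau and Plaur, and the part of these markers in the values of Plau and Plaur was not tested. Without preparation 4 and without the block, all 4 changed genes were called. That fit called 42.7% of all genes in Cre cells and 39.9% in GFP cells. The log2 differences in Cre cells were -1.70 for Plat, -1.68 for Plau, 1.504 for Plaur and -2.06 for Serpine2. In GFP cells these were -1.51, -1.84, 1.60 and -1.93. Endothelial markers, of which all 10 were tested, summed to 20.3 to 32.1 CPM with TGF-beta and 38.4 to 53.6 CPM without it, and their part in the values of Plat, a gene known from endothelium, was not tested. Beside the shares of lower genes above, 14.0% of all genes were higher in Cre cells and 13.8% in GFP cells without the block. With the block 25.2% and 22.6% were higher. Of the 9 fibroblast markers 6 were lower and 0 higher with TGF-beta for either virus without the block, and with it 7 were lower and 1 higher in Cre cells and 6 lower and 2 higher in GFP cells. Their median log2 difference without the block was -1.35 in Cre cells and -1.43 in GFP cells. Their summed level, which gives most weight to the most abundant markers, was higher with TGF-beta in 4 of 4 preparations with either virus. The sum averaged 31253 ± 8772 CPM in TGF-beta-treated Cre cells against 26576 ± 5863 CPM in Cre cells without it (SD, n = 4 each). It averaged 34522 ± 9433 CPM in TGF-beta-treated GFP cells against 27764 ± 6160 CPM in GFP cells without it (SD, n = 4 each).

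Levels of different genes were compared per length, as TMM-scaled CPM divided by exon length in kilobases (FPKM), with exon lengths from an annotation that the counting may not have used. The length joined all annotated exons of a gene: 6241 bases for Plat, 2367 for Plau, 2617 for Plaur, 8287 for Serpine2 and 2359 for Serpinf1. Orders between genes depend on these lengths. By mean CPM with TGF-beta, Serpine2, Plat and Plaur stood at 151, 84.9 and 55.7 in Cre cells and 160.0, 102 and 53.1 in GFP cells. Without TGF-beta the order was Serpinf1, Serpine2, Plat, Plau, Plaur in 8 of 8 libraries. Mean FPKM were 330.2 for Serpinf1, 73.0 for Serpine2, 48.3 for Plat, 10.7 for Plau and 7.66 for Plaur in Cre cells, and 328, 72.7, 50.6, 10.2 and 7.28 in GFP cells. Plau and Plaur were neighbours whose levels were close in replicate 4 of GFP, where the Plaur to Plau ratio was 0.996.

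With TGF-beta that order was found in 0 of 8 libraries. Serpinf1 stayed first in 8 of 8 and Plau was last in 7 of 8, while Plaur, Plat and Serpine2 changed places between libraries. Mean FPKM were 351 for Serpinf1, 18.2 for Serpine2, 13.6 for Plat, 4.32 for Plau and 21.3 for Plaur in Cre cells, and 358, 19.3, 16.3, 3.61 and 20.3 in GFP cells. Plaur exceeded Plat in 4 of 8, which were the libraries of preparations 2 and 4 of either virus, and Serpine2 exceeded Plat in 6 of 8, all but those of preparation 3. Whether Plaur or Serpine2 exceeded Plat thus went by preparation. The order of Plaur and Serpine2 did not in preparation 3, with 18.5 against 14.4 FPKM in Cre cells and 17.3 against 17.6 in GFP cells. These orders were not tested.

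Ratios of FPKM within a library set the receptor against its protease and the serpins against each other. Plaur to Plau was 5.66 ± 1.80 in TGF-beta-treated Cre cells against 0.714 ± 0.202 in Cre cells without it, and 6.10 ± 1.32 in TGF-beta-treated GFP cells against 0.697 ± 0.249 in GFP cells without it (SD, n = 4 each). The lowest ratio with TGF-beta was 4.07 and the highest without it 0.996. Serpinf1 to Serpine2 was 19.6 ± 4.09 in TGF-beta-treated Cre cells against 4.61 ± 0.645 in Cre cells without it, and 18.5 ± 2.84 in TGF-beta-treated GFP cells against 4.57 ± 0.675 in GFP cells without it (SD, n = 4 each). Serpine2 to Plat, an inhibitor and an activator that both fell, was 1.51 ± 0.686 in TGF-beta-treated Cre cells against 1.54 ± 0.341 in Cre cells without it, and 1.29 ± 0.458 in TGF-beta-treated GFP cells against 1.45 ± 0.247 in GFP cells without it, with overlapping groups (SD, n = 4 each). These ratios follow from the values above and were not tested, and their size depends on the exon lengths used.

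**Figure D4:**
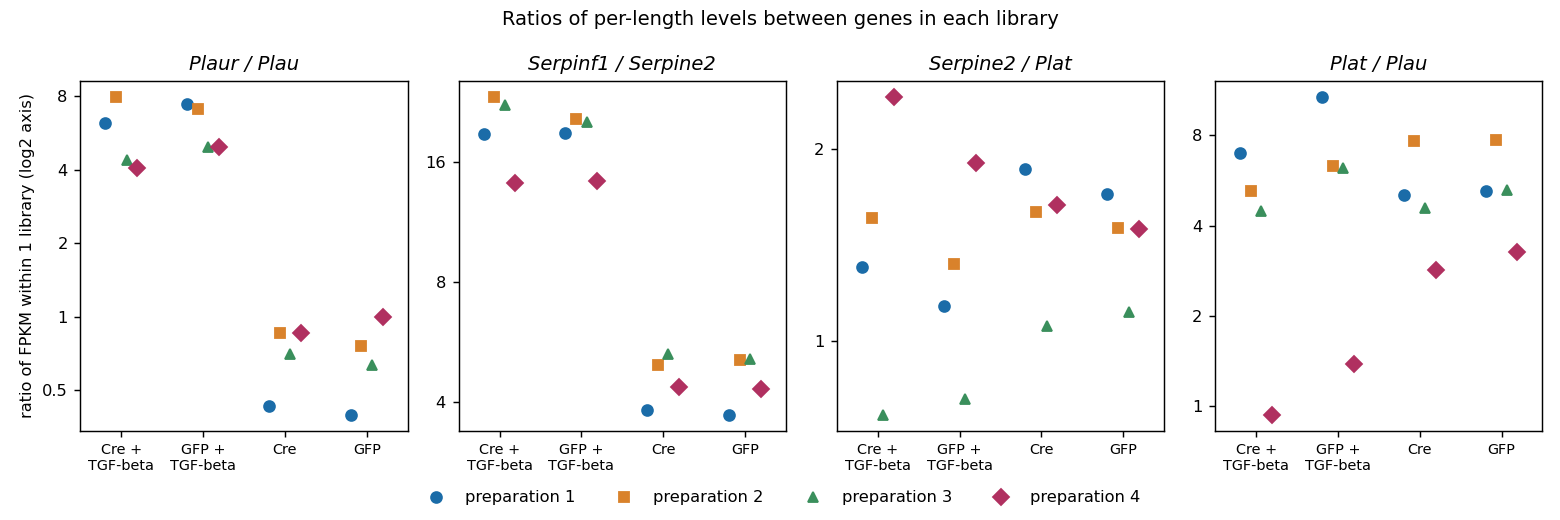
Ratios of length-scaled levels (FPKM, log axis) within each of the 16 libraries, with the 4 groups on the x axis. Plaur to Plau is at least 4.07 in every library with TGF-beta and at most 0.996 without it, while Serpine2 to Plat overlaps between the groups.

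The surrounding pathway was described from 3 lists. Of 16 plasminogen partners, which are plasminogen itself, its cell-surface receptors, and uptake and substrate partners of the activators, 12 were tested. In Cre cells 4 were lower and 0 higher with TGF-beta, with a median log2 difference of -0.26 against 0.02 over all genes. In GFP cells 4 were lower and 0 higher, with a median of -0.32 against -0.02. With the block 7 were lower in Cre cells and 6 in GFP cells. Of all tested genes, 16.3% were lower in Cre cells and 15.3% in GFP cells without the block, and 27.3% and 26.5% with it. Counting calls in either direction, 4 of 12 partners stood against 30.3% of all genes in Cre cells and 29.1% in GFP cells. Plg, which encodes plasminogen, had 0 to 2 counts in any library and was not tested.

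The sorting receptor gene Sorl1, whose product takes up activator and inhibitor complexes, averaged 1.56 ± 0.782 CPM in TGF-beta-treated Cre cells against 36.4 ± 17.5 CPM in Cre cells without it, and 2.29 ± 1.05 CPM in TGF-beta-treated GFP cells against 44.5 ± 19.6 CPM in GFP cells without it (SD, n = 4 each). It fell, with log2 differences of -4.54 in Cre cells and -4.28 in GFP cells (adjusted p = 2.82e-05 and 4.16e-05, edgeR's quasi-likelihood test). Hgf, a growth factor precursor that urokinase can cleave, fell, with log2 differences of -1.09 in Cre cells and -1.95 in GFP cells (adjusted p = 0.004 and 5.2e-05, edgeR's quasi-likelihood test). Without preparation 2 and without the block the Hgf call in Cre cells was lost (log2 -0.93, adjusted p = 0.0633, the same test). Clec3b, which encodes the plasminogen-binding protein tetranectin, was low throughout, at 0.101 ± 0.0541 CPM in TGF-beta-treated Cre cells against 2.00 ± 2.10 CPM in Cre cells without it, and 0.0944 ± 0.0349 CPM in TGF-beta-treated GFP cells against 2.11 ± 1.60 CPM in GFP cells without it (SD, n = 4 each). S100a10, a subunit of the annexin A2 plasminogen receptor, fell, with log2 differences of -0.59 in Cre cells and -0.55 in GFP cells (adjusted p = 0.0154 and 0.0230, edgeR's quasi-likelihood test). The S100a10 calls were lost in Cre cells without replicate 1 of Cre, with adjusted p of 0.0567, and in GFP cells without replicate 1 of GFP or replicate 4 of GFP with TGF-beta, with 0.0759 and 0.0526 (edgeR's quasi-likelihood test). They were also lost without the whole of preparation 1, with adjusted p of 0.145 in Cre cells and 0.159 in GFP cells, and of preparation 3, with 0.123 and 0.0948 (the same test). With the block they were lost without preparation 1, with 0.0531 in Cre cells and 0.0587 in GFP cells (the same test).

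Of 24 other serpins 17 were tested. In Cre cells 6 were lower and 0 higher with TGF-beta, with a median log2 difference of -0.61 against 0.02 over all genes, and in GFP cells 5 were lower and 0 higher, with a median of -0.62 against -0.02. With the block 9 were lower in Cre cells and 1 higher, and 9 were lower in GFP cells and 2 higher. The shares of all genes were those given for the partners, with 14.0% higher in Cre cells and 13.8% in GFP cells without the block, and 25.2% and 22.6% with it. Without preparation 4 and without the block, 8 were lower and 2 higher with either virus, where the calls over all genes were also more numerous, at 22.5% lower and 20.2% higher in Cre cells and 21.3% lower and 18.6% higher in GFP cells. Serping1, the inhibitor of the first complement component, averaged 96.4 ± 25.4 CPM in TGF-beta-treated Cre cells against 651 ± 175 CPM in Cre cells without it, and 97.8 ± 25.2 CPM in TGF-beta-treated GFP cells against 654 ± 177 CPM in GFP cells without it (SD, n = 4 each). It fell, with log2 differences of -2.75 in Cre cells and -2.74 in GFP cells (adjusted p = 4.3e-06 and 4.68e-06, edgeR's quasi-likelihood test). Serpini1, which encodes neuroserpin, an inhibitor of tissue-type activator, fell, with log2 differences of -1.27 in Cre cells and -1.499 in GFP cells (adjusted p = 0.00155 and 0.000503, edgeR's quasi-likelihood test). Serpina3n and Serpina3g also fell, with log2 differences of -4.02 and -3.80 in Cre cells and -4.14 and -4.99 in GFP cells, but they belong to a cluster of near-identical copies among which reads may be split, and their values are uncertain.

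Of 19 genes of coagulation and thrombin signalling 15 were tested, and they moved both ways. In Cre cells 4 were higher and 5 lower with TGF-beta, with a median of 0.23 against 0.02 over all genes, and in GFP cells 4 were higher and 5 lower, with a median of 0.08 against -0.02. With the block 5 were higher in Cre cells and 7 in GFP cells, and 5 were lower in each. Of all genes, 14.0% were higher and 16.3% lower in Cre cells and 13.8% higher and 15.3% lower in GFP cells, and with the block 25.2% were higher and 27.3% lower in Cre cells and 22.6% higher and 26.5% lower in GFP cells. Tfpi2, a Kunitz-type inhibitor of plasmin and other serine proteases, rose by 1.99 in Cre cells and by 1.98 in GFP cells on the log2 scale (adjusted p = 7.97e-06 and 9.31e-06, edgeR's quasi-likelihood test), to 54.5 ± 13.8 CPM in Cre cells with TGF-beta against 13.7 ± 2.68 CPM without it, and to 48.3 ± 9.07 CPM in GFP cells with TGF-beta against 12.3 ± 2.91 CPM without it (SD, n = 4 each). F2r, the thrombin receptor PAR1, rose by 0.88 in Cre cells and by 0.87 in GFP cells on the log2 scale (adjusted p = 0.00251 and 0.00274, edgeR's quasi-likelihood test). Without preparation 1 and without the block the F2r calls were lost, with adjusted p of 0.0511 in Cre cells and 0.0577 in GFP cells (the same test). Thbd, the thrombin cofactor thrombomodulin, fell, with log2 differences of -1.62 in Cre cells and -1.43 in GFP cells (adjusted p = 3.05e-05 and 8.94e-05, edgeR's quasi-likelihood test). F5, coagulation factor V, fell, with log2 differences of -2.01 in Cre cells and -2.45 in GFP cells from a low level (adjusted p = 0.0039 and 0.00126, edgeR's quasi-likelihood test). No gene of the 3 lists was called between Cre and GFP cells in either medium, with or without the block, in fits of all 16 libraries. In the blocked fit without preparation 4, Igf2r, a plasminogen partner that falls outside the naming rule and was singled out after its value was seen, was lower with Cre without TGF-beta (log2 -0.53, adjusted p = 0.00566, edgeR's quasi-likelihood test).

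**Figure D5:**
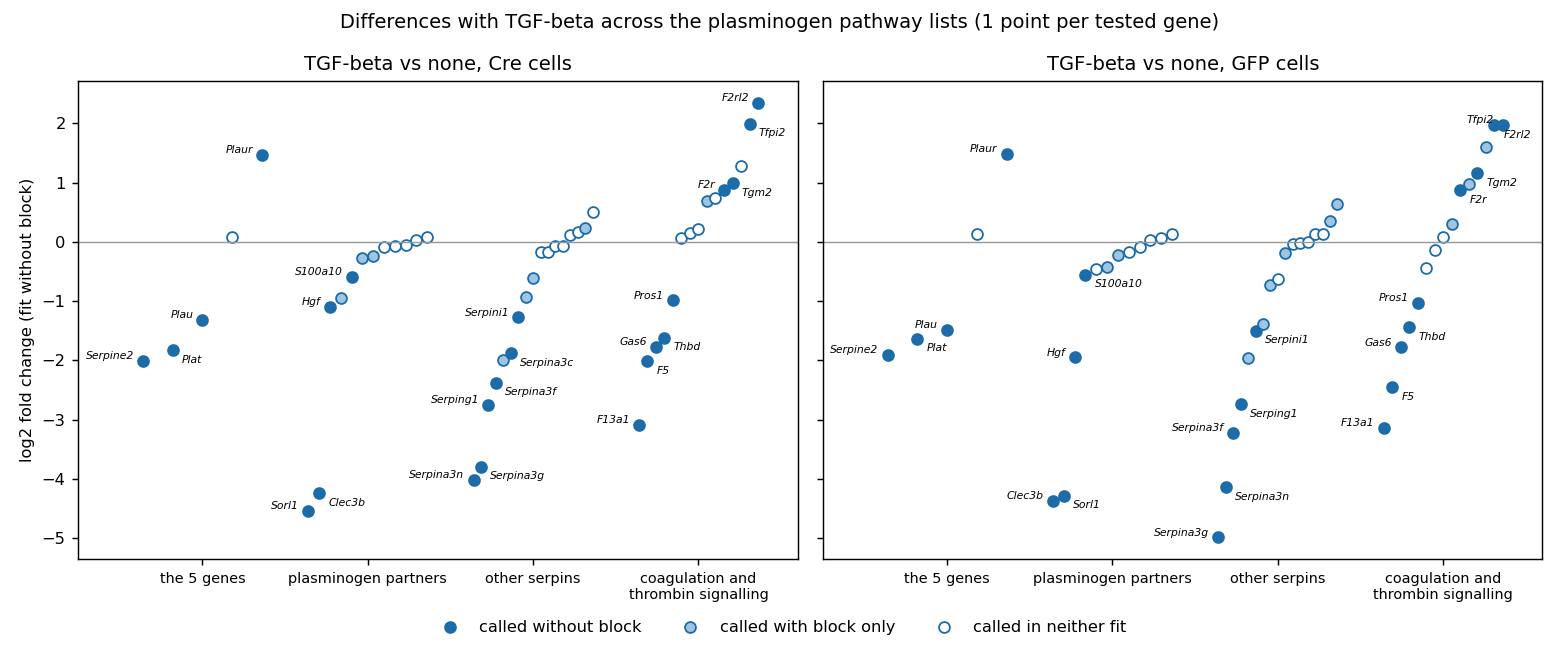
Log2 fold change with TGF-beta for each tested gene of the 5 genes and the 3 lists, in 1 panel for each virus. Filled points were called without the block, and the plasminogen partners and other serpins that were called without it lie below 0, while the coagulation genes lie on both sides.

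The genes with the most similar profiles were found from log2(CPM + 0.5) centred on its mean over the 16 libraries, by the smallest root mean square difference among 11101 genes with a mean of at least 2 CPM. For Plat these were Hspa12a, Mrgprf and Fzd1, at 0.182, 0.198 and 0.220 log2 units, where the median gene lay at 0.995. For Serpine2 they were Sbsn, A4galt and Rab3il1, at 0.168, 0.176 and 0.180, with a median of 1.03. For Plaur they were Ngef, Dyrk3 and Fam167a, at 0.239, 0.243 and 0.257, with a median of 0.978. For Plau they were Galnt18, Tnfaip8 and Stmn1, at 0.313, 0.344 and 0.348, with a median of 1.01, so no gene matched Plau as closely as the nearest genes matched the other members. For Serpinf1 they were P3h4, Stambp and Tmem159, at 0.0895, 0.0933 and 0.0935, with a median of 0.350. The 16 libraries share 4 preparations, so these likenesses include what the preparations have in common.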

How the data were processed

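RNA from 16 mouse heart fibroblast libraries was sequenced, and the authors deposited raw read counts per gene, made with HTSeq 0.10.0 after FastQC 0.10.1 on the GRCm39 build (mm39), per the submitters' processing notes. For alignment, annotation and strandedness of the counting, the sources used here give nothing. The deposited counts covered 55414 genes, of which 52081 had a symbol in the reference tables.

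Genes were kept by edgeR's filterByExpr (minimum count 10, total 15), which left 15285 genes with 99.9% of all counts. Counts were scaled by TMM (factors 0.908 to 1.12) and tested with edgeR 4.0.16 (quasi-likelihood, robust) in R 4.3.3, in 1 fit of all 16 libraries with 1 mean per group and 5 comparisons. Adjusted p-values are Benjamini-Hochberg over all 15285 genes. Libraries held 17858263 to 48748487 counts. The biological coefficient of variation was 0.254 without and 0.123 with preparation as a block. The labels do not state that preparations came from separate animals, so the p-values reflect only how much these preparations varied.

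Library names give the same preparation code to libraries with the same replicate number. Across genes, departures from the group mean went together in each of the 24 pairs of libraries with 1 number (r 0.323 to 0.838), against a median of -0.130 over the other 72 pairs, so the numbers pair the libraries. FPKM used exon lengths from GENCODE annotation of GRCm38, and promoters came from RefSeq. The fitting code was also run on simulated counts, made under a simpler setting than these data. That run does not show how often calls in these data are wrong. Alternatives were RLE size factors, DESeq2 1.42.0, no filter, a stricter filter of 5 CPM in 4 libraries, the replicate block, sex as a covariate, only the libraries compared, and leaving out each library or preparation.

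The genes named were the 5 members, the 4 genes of each of the 3 lists with the smallest adjusted p for TGF-beta in GFP cells, Has2, Acta2, and the 3 genes most like each member. Marker genes of cell types are named by list. The members and lists were chosen with earlier results of these data known.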

Additional observations from a re-analysis of the deposited data

Results flagged for a closer look

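Clec3b, a plasminogen-binding protein gene, stood out in replicate 1 of Cre cells without TGF-beta, at 5.12 CPM against a median of 1.10 CPM in the other 3 Cre libraries. It was the only one of 76 groups tested (each of 19 genes in 4 groups) where the highest or lowest library lay further from the rest than the 95% critical value of Dixon's test allows, and chance flags about 1 group in 20.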

How the results depend on the processing

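Plat and Serpine2 kept their call and direction with TGF-beta in both viruses under every alternative run. The count of 4 called genes fell to 2 without a filter on low counts in Cre cells and in GFP cells, and ranged from 2 to 4 in Cre cells and from 2 to 5 in GFP cells when libraries or preparations were left out. Without the filter, Plau had an adjusted p of 0.105 in Cre cells and 0.0717 in GFP cells and Plaur 0.0560 and 0.0539 (edgeR's quasi-likelihood test), and Plau in Cre cells had 0.0651 with only the libraries compared. Of 29129 genes tested without the filter, 1707 were higher and 2193 lower in Cre cells, and 1749 higher and 1994 lower in GFP cells. The cause of the lost calls was not tested. Without preparation 1, 2 or 3 and without the block, 2 of the 5 genes were called with either virus. Those fits called 15.1% to 18.8% of all genes in Cre cells and 14.5% to 18.6% in GFP cells, against 30.3% and 29.1% with all libraries. The replicate block kept 4 called genes with each virus and changed no other call of the 5 genes.

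Differences between Cre and GFP cells near 0 changed sign. With the block, Serpine2 without TGF-beta was -0.00073, and with the stricter filter the difference of responses of Plaur was 0.0087. In blocked fits without preparation 1, 2 or 4, Serpine2 without TGF-beta was -0.021, -0.0013 and -0.019, and Serpinf1 was -0.014 without preparation 1 and -0.0066 without preparation 4. In the blocked fit without preparation 3, Serpinf1 with TGF-beta was 0.0078 and the difference of responses of Plaur 0.027. With libraries left out, the differences without TGF-beta ranged from -0.16 to 0.020 for Plat, -0.12 to 0.28 for Plau, -0.28 to 0.54 for Plaur, -0.14 to 0.12 for Serpine2 and -0.051 to 0.061 for Serpinf1. With TGF-beta they ranged from -0.32 to 0.75 for Plau, -0.28 to 0.42 for Plaur, -0.17 to 0.0081 for Serpine2 and -0.16 to 0.074 for Serpinf1. The differences of responses ranged from -0.39 to 0.68 for Plau, -0.47 to 0.36 for Plaur, -0.21 to 0.048 for Serpine2 and -0.17 to 0.063 for Serpinf1. Fits without a single library used no block and kept the other libraries of its preparation, so the groups no longer held the same preparations.

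Over all genes, calls with TGF-beta numbered 8030 with the block and 4629 without it in Cre cells, and 7498 with it and 4445 without it in GFP cells. Between Cre and GFP cells, the 95% intervals of Plau and Plaur without the block reached from -0.91 to 1.25 on the log2 scale, and these are not adjusted for the number of genes.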
